A study of Mus musculus with 12 samples.

Results

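The genes described here are 9 hormone receptors and hormone-sensing luminal genes of the mammary gland, namely Esr1, Pgr, Prlr, Foxa1, Gata3, Greb1, Wnt4, Tnfsf11 and Cited1. They were taken by symbol as members of a named set, and all 9 were found among the 54658 genes of the deposited count tables. RNA sequencing had been done on 9 mammary tumours of genotype Trp53R245W/+ and on 3 preparations of enriched epithelia from wild-type mammary glands of the same cohort. The R245W missense change of the tumour suppressor p53 was somatic per the design text, and all mice were females of the first generation of a cross between C57BL/6J and BALB/cJ (C57BL/6J X BALB/cJ F1). Genotype followed the tissue, and so did the prefix of the library titles, so that the p53 change, the tumour state and a batch cannot be told apart in any gene. Whether the tumours came from separate mice is not given in the sources used here, and p-values measure the spread between these samples. Age, stage of the oestrous cycle and the method that switched the Trp53 allele were not given in the sources used here. Tumours are named by the numbers of their labels (1, 4, 5, 14, 17, 20, 21, 24 and 27) and epithelium libraries by 1, 2 and 3. Tumour 27 is set against the other 8 tumours, a comparison chosen with earlier results of these data known. Its levels, and the fits that leave it out, are therefore given as a description.

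In the mammary gland, oestrogen and progesterone act on a subset of luminal cells that carry their nuclear receptors. These hormone-sensing cells divide little themselves and pass the signal on to neighbouring luminal progenitor and basal cells through secreted factors such as Wnt4, RANK ligand and amphiregulin. The transcription factors Foxa1 and Gata3 open chromatin for the oestrogen receptor and maintain luminal fate, and prolactin acts through its own cytokine receptor, JAK2 and STAT5 to drive alveolar differentiation. Loss or retention of these receptors separates the major classes of breast cancer.

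Over the 8 tumours other than 27, the median of 8 of the 9 genes was 0.474% (Pgr) to 25.4% (Wnt4) of the epithelium mean. Gata3, at 63.4%, was the exception, and the share of all genes this low was not computed. Tumour 27 held 7 of the 9 genes at the highest level of the 9 tumours, where it was highest in 9.97% of all genes tested. In the fit over all libraries, edgeR's quasi-likelihood test called 2 of the 9 genes lower in tumours and none higher at an adjusted p under 0.05, where 11.4% of all 21456 genes tested were called lower and 8.89% higher, 20.3% in all. The called genes were Esr1 and Pgr. The median log2 fold change of the 9 genes was -1.79, against 0.17 for all genes tested. Without tumour 27 the same test called 6 of the 9 lower, with a median of -3.28, where 12% of all genes were called lower and 8.95% higher, 20.9% in all, and the median of all genes was 0.16. Those 6 were Esr1, Pgr, Prlr, Foxa1, Wnt4 and Cited1. Leaving out the tumour that was highest in 7 of the 9 genes lowers the tumour mean in those 7. The calls and p-values without tumour 27 are therefore a description here and below. At an unadjusted p under 0.05, 3 of the 9 genes were lower over all libraries and 0 were higher, and the share of all genes at this threshold is not given here. DESeq2 called 4 of the 9 lower (Esr1, Pgr, Prlr and Foxa1), after it had replaced the tumour 27 counts of Foxa1, Pgr and Tnfsf11 as outliers, and limma-voom called 8 lower, all but Gata3. Neither tool called a member of the set higher. Over all genes, DESeq2 called 3623 lower and 3830 higher of the 38829 it fitted, of which 10586 had no adjusted p and could not be called. With limma-voom 5622 were lower and 4994 higher of 21456, so many calls in any list are common with that tool. These are bulk samples, in which fewer cells of a type and less RNA per cell cannot be told apart.

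The sequence just upstream of a RefSeq start is shown for Pgr, Foxa1 and Cited1, the 3 genes that fell furthest when tumour 27 was left out. Sequences are from RefSeq on GRCm38.p6, in which all 9 genes had at least 1 start, written 5′ to 3′ on the strand of the gene. Capitals mark matches on either strand to GGTCA, the repeat unit of the oestrogen response element, or the forkhead motif TGTTTAC.
Pgr, chr9:8899583-8899832, plus strand: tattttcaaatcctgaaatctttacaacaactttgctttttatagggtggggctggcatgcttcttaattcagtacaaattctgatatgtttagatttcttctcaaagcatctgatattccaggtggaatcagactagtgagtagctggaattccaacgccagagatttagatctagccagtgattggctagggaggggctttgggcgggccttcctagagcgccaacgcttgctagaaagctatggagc
Foxa1, chr12:57546122-57546361, minus strand: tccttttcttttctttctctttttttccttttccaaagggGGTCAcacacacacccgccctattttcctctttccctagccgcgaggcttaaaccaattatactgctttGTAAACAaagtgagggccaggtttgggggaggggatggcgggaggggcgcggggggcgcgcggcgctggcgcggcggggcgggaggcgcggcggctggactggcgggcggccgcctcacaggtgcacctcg
Cited1, chrX:102252182-102252431, minus strand: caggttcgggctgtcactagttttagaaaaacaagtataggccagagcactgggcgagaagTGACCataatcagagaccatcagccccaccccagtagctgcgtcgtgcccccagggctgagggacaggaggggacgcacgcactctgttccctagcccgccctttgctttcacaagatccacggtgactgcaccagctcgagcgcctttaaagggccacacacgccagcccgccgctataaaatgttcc
The Foxa1 window held GGTCA starting 210 bases and a forkhead match starting 141 bases before the RefSeq start, and 10 bases next to that start were left out because GENCODE M21 places them in an exon. This window lies before the protein-coding transcript of GENCODE and within the intron of a longer non-coding Foxa1 transcript, whose start bounds the gene span given for Foxa1. The Cited1 window held it 189 bases before its start, and the Pgr window held none of the motifs searched. GGTCA is common, being present in 35.2% of all 32851 promoter windows of 250 bases, and the forkhead motif was present in 3.17%. GGTCA was in 6 of the 15 windows of the 9 genes (in Cited1, Foxa1, Gata3 and Greb1) and the forkhead motif in 2 (Foxa1 and Prlr). The full palindromic oestrogen response element, which contains GGTCA on both strands, was in 0.0639% of windows and in none of the 15 windows of the 9 genes. AGATAA, which Gata3 and its family recognise, was in 9.99% of windows and in none of the 15. The STAT5 motif TTCNNNGAA was in 7.02% and in 2 of the 15 (Esr1 and Prlr). A match of letters is a description and not a binding site.

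Libraries held 19695318 to 33600076 counts in genes per tumour and 24247566 to 25543872 per epithelium library. After scaling, the effective library size was 10962076 in tumour 4, the shallowest, and 28763721 to 29579970 in epithelium. Values are counts per 1000000 (CPM) scaled by the trimmed mean of M values, mean ± SD over 9 tumours and 3 epithelium libraries, and fold changes are tumour over epithelium on the log2 scale with their standard error (SE). Trp53 RNA was 18.5 to 80.9 CPM in tumours and 41.7 to 45.7 CPM in epithelium, and gene counts do not show the R245W change. Tumour 4 stood apart, with 22.6% of all gene counts in Rn7sk, a small nuclear RNA, against at most 2.09% in epithelium. Alignments outside genes made up 39.9% to 41.5% in epithelium and 8.08% to 32.3% in tumours. The defining keratins of luminal cells were present in every library, with 200.4 to 1969 CPM of Krt18 over the 12 libraries. The epithelium libraries also held markers of T and NK cells (521 to 609 CPM summed over 10 genes) and of B cells (808 to 1149 CPM over 8 genes), which in tumours summed to 3.52 to 41.1 and 4.61 to 80.7 CPM.

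**Figure D1:**
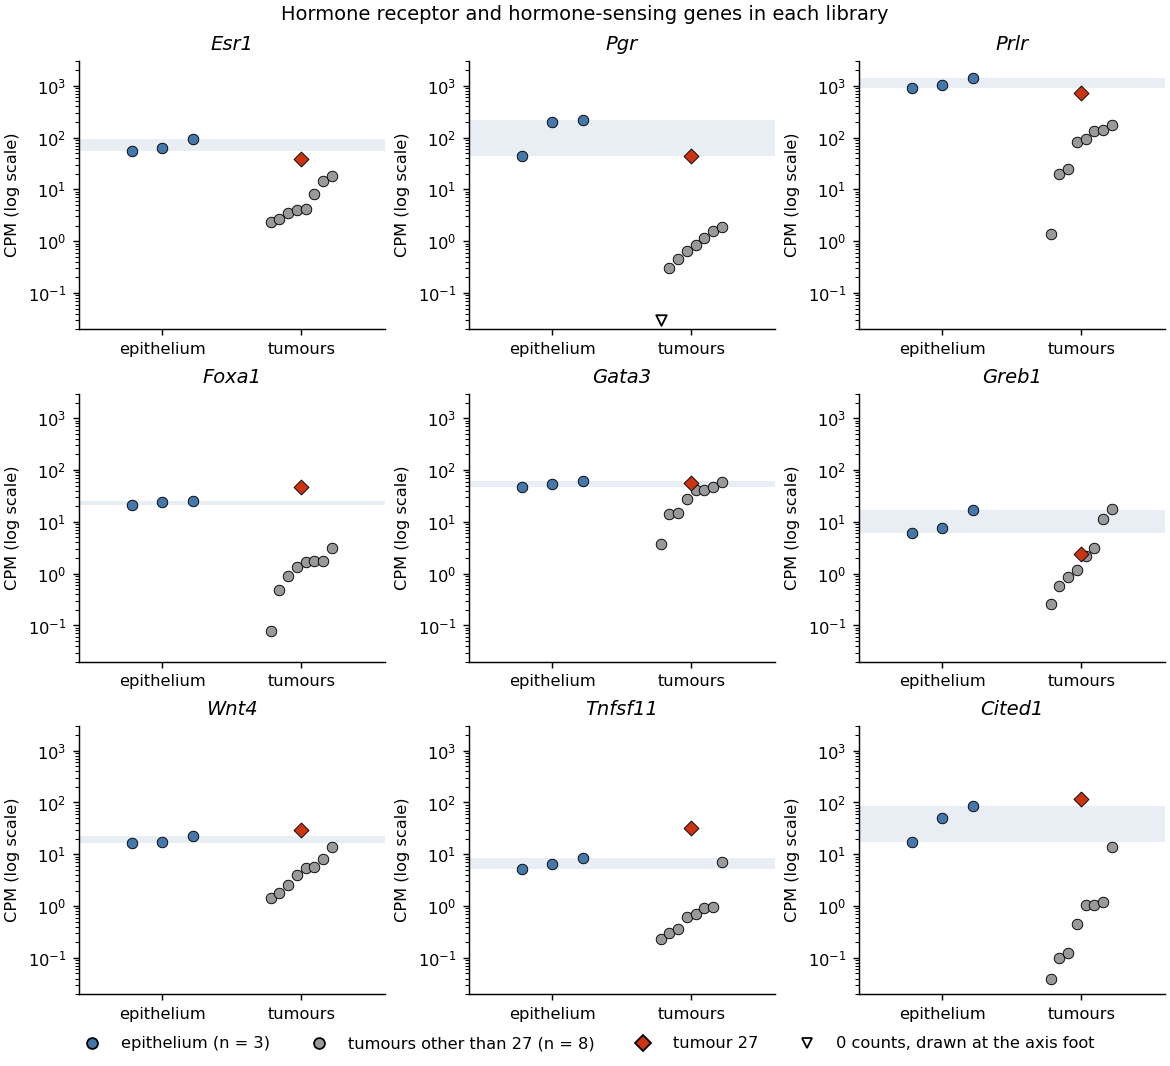
Level of each of the 9 genes in every library, in CPM on a log axis, with 1 point per library, epithelium in blue, tumours other than 27 in grey and tumour 27 as a red diamond. The blue band spans the 3 epithelium libraries, points are spread sideways only to keep them apart, a white triangle marks 0 counts, and tumour 27 is the highest tumour in 7 of the 9 panels.

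Esr1 encodes oestrogen receptor alpha, the nuclear receptor through which oestrogen acts in the gland (chromosome 10, 4611593 to 5005614, GRCm38). Its epithelium libraries 1, 2 and 3 had 95.6, 54.6 and 61.8 CPM. Tumours had 2.39 CPM at the lowest (tumour 20), 4.24 CPM at the median and 38.4 CPM at the highest (tumour 27), with 18.2 CPM in tumour 1 and 14.6 CPM in tumour 21 next. Every tumour therefore lay below every epithelium library, also tumour 27, which held 54.4% of the epithelium mean. Esr1 fell from 70.7 ± 21.9 to 10.7 ± 11.8 CPM (log2 fold change of -2.72 with SE 0.71, edgeR adjusted p = 0.0177). The call was lost without epithelium library 1 (adjusted p = 0.0888) or 3 (adjusted p = 0.0523) and was kept in each of the 10 other fits that left out 1 library.

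Pgr, the progesterone receptor gene and a standard oestrogen target (chromosome 9, 8899833 to 8968611), showed the widest gap between tumour 27 and the next tumour. Epithelium libraries 1, 2 and 3 had 202, 44.2 and 221 CPM, so that library 2 was far below the other two. The 8 tumours other than 27 ran from 0 counts in tumour 1 to 1.84 CPM in tumour 20, with a median of 0.738 CPM or 0.474% of the epithelium mean. The 0 of tumour 1 allows up to 0.0997 CPM at 3 counts. Tumour 27 had 45.0 CPM, which is 24.5-fold over the next tumour, within the epithelium range just above library 2, and 28.9% of the epithelium mean. Pgr fell by 4.75 on the log2 scale (SE 1.43, edgeR adjusted p = 0.0333) with all tumours and by 7.54 (SE 0.83, adjusted p = 0.000137) without tumour 27. The call did not hold without epithelium library 1, 2 or 3 (adjusted p = 0.101, 0.0577 and 0.109), or without tumour 5, 14 or 20 (adjusted p = 0.0502, 0.0520 and 0.0505).

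Prlr, the prolactin receptor gene (chromosome 15, 10177238 to 10349180), was the most abundant of the 9 in epithelium, with 1044, 920.4 and 1439 CPM in libraries 1, 2 and 3. Tumour 27 had 712 CPM, or 62.8% of the epithelium mean. The other 8 tumours ran from 1.36 CPM in tumour 1, a count of 41, to 175 CPM in tumour 4, with a median of 88.4 CPM. Thus all 9 tumours were below all epithelium libraries, and the highest tumour had 523 times the CPM of the lowest. With all tumours the difference missed the threshold (log2 fold change -2.88, SE 0.99, edgeR adjusted p = 0.0570), and it passed without tumour 27 (-3.75, adjusted p = 0.00828) or without tumour 1 (-2.70, adjusted p = 0.0310). Counts per gene do not separate the long and short forms of this receptor, and 203 exonic bases of Prlr overlap those of Gm21973 on the same strand.

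Foxa1, a pioneer factor that opens chromatin for the oestrogen receptor (chromosome 12, 57540628 to 57546916), had the next widest gap after Pgr. Epithelium was tight at 24.9, 24 and 21.1 CPM in libraries 1, 2 and 3. The 8 tumours other than 27 ran from 0.0769 CPM in tumour 24, a count of 2 (95% Poisson interval 0.00931 to 0.278 CPM), to 3.09 CPM in tumour 1, with a median of 1.53 CPM. Tumour 27 had 46.8 CPM, 2.01 times the epithelium mean and 15.1-fold over the next tumour. Over all libraries Foxa1 was not called (6.43 ± 15.2 against 23.3 ± 1.96 CPM, log2 fold change -1.85, SE 1.25, edgeR adjusted p = 0.302). Without tumour 27 it fell by 4.07 (SE 0.63, adjusted p = 0.000985).

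Gata3, the luminal fate regulator (chromosome 2, 9857078 to 9890034), had the smallest difference from epithelium of the 9 when tumour 27 was left out. Its values were 52.8, 47.7 and 61.4 CPM in epithelium libraries 1, 2 and 3, and 3.76 CPM at the lowest (tumour 20), 40.8 CPM at the median and 58.1 CPM at the highest (tumour 17) in tumours. Tumours 17 and 27, at 58.1 and 57.4 CPM, lay within the epithelium range and the other 7 lay below it. The log2 fold change was -0.67 (SE 0.58, edgeR adjusted p = 0.426), and -0.80 (adjusted p = 0.339) without tumour 27. Gata3 is also a gene of T cells, whose markers were much higher in the epithelium libraries, and the part of those cells in the Gata3 level was not tested. Its exons overlap 77 bases of 9230102O04Rik on the same strand and 155 bases of the antisense gene Gm13256.

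Greb1 and Cited1 are tied to oestrogen signalling, Greb1 as an oestrogen-induced cofactor of the receptor and Cited1 as a coactivator that binds it. They behaved differently across the tumours. Greb1 (chromosome 12, 16670615 to 16800886) had 7.62, 6.19 and 16.6 CPM in epithelium libraries 1, 2 and 3, and 0.263 CPM at the lowest (tumour 14), 2.15 CPM at the median and 17.5 CPM at the highest (tumour 5) in tumours. Tumour 20 followed with 11.2 CPM and tumour 27 had only 2.36 CPM, the fourth of the 9. Greb1 was not called with or without tumour 27 (log2 fold changes -1.22 and -1.14, edgeR adjusted p = 0.388 and 0.443). Tumours 5 and 20, where Greb1 was high, had 8.34 and 2.39 CPM of Esr1 and 0.841 and 1.84 CPM of Pgr. Greb1 shares 736 exonic bases with the antisense gene Gm48140, and the strand setting of the counting is not given in the sources used here.

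Cited1 (chromosome X, 102247381 to 102252181) had 49.9, 84.9 and 17 CPM in epithelium libraries 1, 2 and 3, an order that differs from that of Pgr. Of the 8 tumours other than 27, tumour 4 had 13.7 CPM, and the other 7 had from 0.0384 CPM, a single count in tumour 24, to 1.18 CPM in tumour 20. Tumour 27 reached 114 CPM, above every epithelium library and 8.35-fold over tumour 4. The log2 fold change was -1.79 (SE 1.70, edgeR adjusted p = 0.475) with all tumours and -4.57 (SE 1.26, adjusted p = 0.0234) without tumour 27. Leaving out epithelium library 2 moved it to -1.19 (adjusted p = 0.745).

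Wnt4 and Tnfsf11, which encodes RANK ligand, are the secreted signals that progesterone induces in hormone-sensing cells. Wnt4 (chromosome 4, 137277489 to 137299726) had 16.6, 22.6 and 17.4 CPM in epithelium libraries 1, 2 and 3. The 8 tumours other than 27 had 1.44 CPM (tumour 5) to 13.9 CPM (tumour 4), with a median of 4.78 CPM, and tumour 27 had 29.9 CPM. So 8 tumours lay below the epithelium range and tumour 27 above it. The log2 fold change was -1.22 (SE 0.74, edgeR adjusted p = 0.249), and -1.81 (SE 0.57, adjusted p = 0.0404) without tumour 27.

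Tnfsf11 (chromosome 14, 78277445 to 78308043) was low in epithelium, with 5.16, 8.34 and 6.39 CPM in libraries 1, 2 and 3. Tumour 27 had 32.8 CPM, 4.95 times the epithelium mean, and tumour 5 had 6.97 CPM, within the epithelium range. The other 7 tumours had 0.230 to 0.954 CPM. Tnfsf11 was not called over all tumours (log2 fold change -0.44, SE 1.35, edgeR adjusted p = 0.840) or without tumour 27 (-2.24, SE 0.86, adjusted p = 0.0825). T cells and stromal cells of lymph nodes also make RANK ligand, and their part in the epithelium level was not tested.

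**Figure D2:**
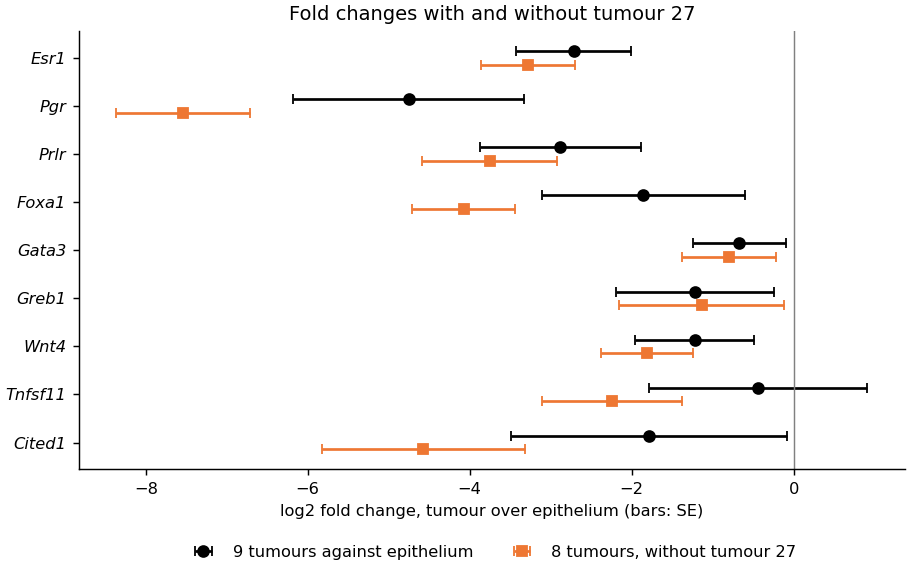
Log2 fold change of each gene, tumour over epithelium, with SE as bars, for all 9 tumours (black circles) and for the 8 tumours other than 27 (orange squares). Leaving out tumour 27 moved Pgr from -4.75 to -7.54, Foxa1 from -1.85 to -4.07 and Cited1 from -1.79 to -4.57, while Gata3 and Greb1 moved little.

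All 9 tumours were below all 3 epithelium libraries in 2 of the 9 genes (Esr1 and Prlr), where this held for 14.1% of all genes tested. For the 8 tumours other than 27 it held in 6 of the 9 genes, the same 6 that the test then called, against 15.7% of all genes. Tumour 27 was the highest of the 9 tumours in 7 of the 9 genes, the exceptions being Gata3 and Greb1, where it was highest in 9.97% of all genes tested. It was at least 2-fold over the median of the other 8 tumours (log2 CPM with a prior count of 2) in the same 7 genes, against 12.7% of all genes. Its position between the groups varied by gene: 4 genes (Foxa1, Wnt4, Tnfsf11 and Cited1) were above every epithelium library, Pgr and Gata3 lay within the epithelium range, and Esr1, Prlr and Greb1 lay below it. The median of its log2 differences from the epithelium mean over the 9 genes was 0.10, while in the other tumours this median ran from -4.42 (tumour 14) to -2.68 (tumour 21). Among those 8, no other tumour had more than 2 of the 9 genes at or above the lowest epithelium library.

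**Figure D3:**
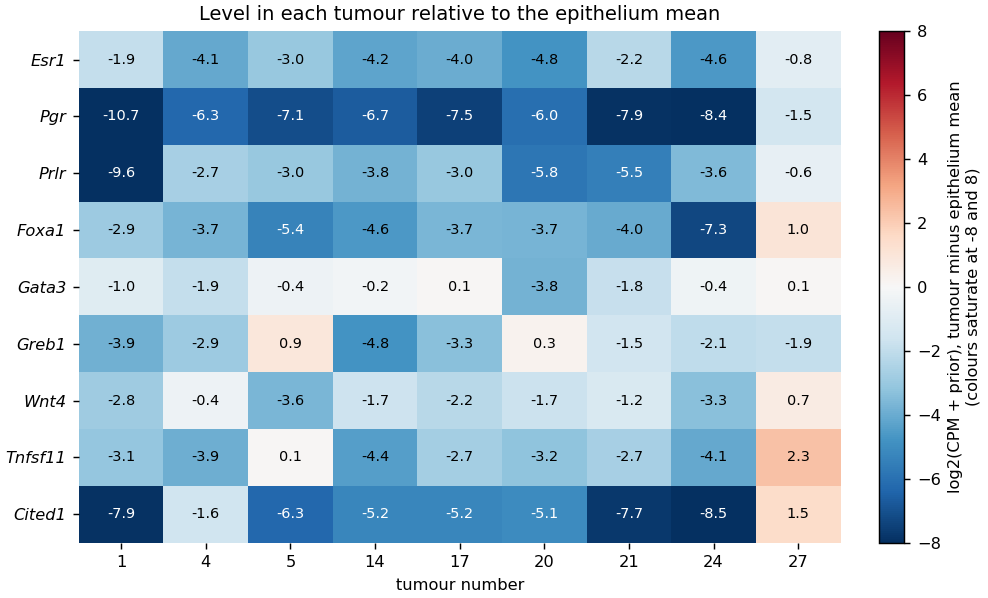
Difference on the log2 scale between each tumour and the mean of the 3 epithelium libraries for the 9 genes, computed from CPM with a prior count of 2, with blue for lower and red for higher. Tumour 27 runs from -1.93 (Greb1) to 2.32 (Tnfsf11), tumours 5 and 20 stand out in Greb1, and the values of the darkest blue squares depend on the prior count.

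Compared per kb of exonic length, the order of the levels changed between the groups. In epithelium Prlr was highest at a mean of 73.9 CPM per kb, followed by Cited1 (28.8), Pgr (18.2), Gata3 (13.6), Foxa1 (7.01), Esr1 (5.17), Wnt4 (4.49), Tnfsf11 (2.97) and Greb1 (1.06). The libraries of Prlr, 60.0 to 93.8 CPM per kb, did not overlap those of any other gene, whereas neighbours in this order overlapped from Cited1 to Pgr, Pgr to Gata3, Foxa1 to Esr1 and Esr1 to Wnt4. In the 8 tumours other than 27 Gata3 came first with a median of 8.60 CPM per kb, ahead of Prlr with 5.76 and Wnt4 with 1.14, and Pgr was last with 0.0864. The ranges of Gata3 (0.945 to 14.6) and Prlr (0.0889 to 11.4) overlapped over these tumours. In tumour 27 Cited1 was highest with 65.2 CPM per kb, before Prlr with 46.4, and Tnfsf11, Gata3 and Foxa1 followed with 14.7, 14.4 and 14.1. Esr1 had 2.81 and Greb1 0.246 CPM per kb there.

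The summed level of Krt8, Krt18, Epcam and Cdh1 was 1352 to 2048 CPM in epithelium and 1065 to 5526 CPM in tumours. The genes were therefore also set against the summed counts of these 4 genes. Epcam and Cdh1 were themselves called higher in tumours by edgeR, and this scale lowers every gene in a tumour where the sum is high. Whether the sum stands for the amount of epithelium was not tested. Prlr had 694 ± 11.6 counts per 1000 of these epithelial counts in the 3 epithelium libraries and 172 in tumour 27, with a median of 29.0 in the other 8 tumours. On this scale tumour 27 was below every epithelium library in 6 of the 9 genes, among them Esr1 (9.31 against 30.2 to 64.0), Pgr (10.9 against 32.7 to 135) and Wnt4 (7.24 against 8.49 to 16.7). Foxa1 and Cited1 in tumour 27, at 11.3 and 27.7, lay within the epithelium ranges of 10.3 to 17.7 and 8.30 to 62.8, and Tnfsf11, at 7.94, lay above 3.12 to 6.17. With this scaling in the fit, edgeR called Esr1 (log2 fold change -3.64, adjusted p = 0.000297), Pgr (-5.84, adjusted p = 0.0235) and Prlr (-3.94, adjusted p = 0.00444) lower, and the median of all genes moved to -0.46. Tumour 27 remained the highest tumour in 6 genes there, since tumour 21 then exceeded it in Esr1 (10.6 counts per 1000).

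Other markers moved with these genes in tumour 27. The 10 basal and myoepithelial genes summed to 4992 CPM in tumour 27, against 239.8 to 2164 CPM in the other tumours and 1552 to 2091 CPM in epithelium, and 6 of the 10 were highest in tumour 27, though not Acta2, smooth muscle actin, which had 993 CPM there and 996 CPM in tumour 20. Myh11, smooth muscle myosin, had 1086 CPM there, at most 142 CPM in the other 8 and 449 ± 70.7 CPM in epithelium. The 10 general luminal genes summed to 5749 CPM, the third highest sum of the tumours, and none of them was highest in tumour 27. Lymphocyte markers, which were high in epithelium, stayed low in tumour 27, at 40.1 CPM for T and NK cells and 15.4 CPM for B cells, and the 10 adipocyte genes summed to 61.7 CPM against 428 to 622 CPM in epithelium. The 10 endothelial genes summed to 845 CPM, the highest of the tumours and below the 985 to 1253 CPM of epithelium, and the 10 fibroblast genes to 1813 CPM against 4196 to 6434 CPM. The part of these cells in the levels of tumour 27 was not tested.

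**Figure D4:**
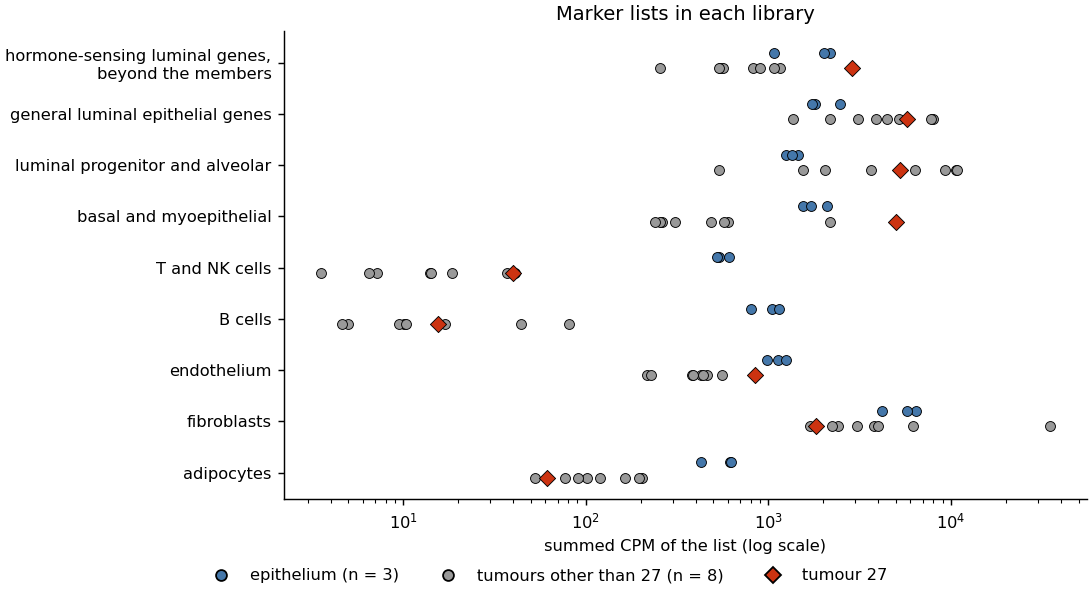
Summed CPM of fixed marker lists in each library on a log axis, with epithelium in blue, tumours other than 27 in grey and tumour 27 as a red diamond. Tumour 27 is highest of the tumours for hormone-sensing genes beyond the 9 and for basal and myoepithelial genes, and far below epithelium for lymphocyte and adipocyte genes.

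Further genes of hormone-sensing luminal cells followed the 9 in part. Of 13 such genes, edgeR called 1 lower and 0 higher over all tumours (median log2 fold change -1.18), and 5 lower (Areg, Tbx3, Stc2, Fxyd2 and Krt19) and 0 higher without tumour 27 (median -2.47). At an unadjusted p under 0.05, 4 were lower and 1 higher over all tumours. DESeq2 called 5 lower and 1 higher (Tfap2c), and limma-voom called 8 lower and 0 higher. The gene edgeR called over all tumours was Areg, which encodes amphiregulin, the EGF receptor ligand through which oestrogen drives duct growth. It had 461, 76.4 and 369 CPM in epithelium libraries 1, 2 and 3, the order of library 2 below the others being that of Pgr. Tumours had 0.384 CPM at the lowest (tumour 24), 2.92 CPM at the median and 68.3 CPM at the highest (tumour 27). All 9 tumours were below all 3 epithelium libraries (log2 fold change -4.43, SE 1.16, edgeR adjusted p = 0.0182), and the call was lost without epithelium library 1 or 3.

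Tumour 27 was the highest tumour in 9 of these 13 genes, whose summed level was 2873 CPM there, 256 to 1165 CPM in the other tumours and 1073 to 2167 CPM in epithelium. Krt19, a luminal keratin, had 1556 CPM in tumour 27, a median of 71.9 CPM in the other 8 and 645 ± 215 CPM in epithelium. Xbp1, a transcription factor gene of secretory cells, had 357 CPM in tumour 27, the fourth of the tumours, and a median of 287 CPM in the other 8. Prom1 and Ly6a, named after their values were seen, were not highest in tumour 27. Prom1 had 22.1 CPM there, against a median of 22.5 CPM in the other 8 and 151 CPM in tumour 1. Ly6a had 121 CPM there and 138 CPM in tumour 5. Stc2, Fxyd2 and Calca, chosen after their values were seen, had 173, 48.9 and 60.9 CPM in tumour 27 and at most 35.9, 5.51 and 0.700 CPM in the other tumours. Calca, which encodes calcitonin and is a progesterone target in the gland, was low in epithelium (mean 2.13 CPM), whereas Stc2 (161 CPM) and Fxyd2 (40.9 CPM) were not.

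The oestrogen receptor works with coactivators and corepressors that many cell types share. Of 12 coregulator genes, 2 were called lower and 0 higher, against 11.4% and 8.89% of all genes tested. Their median log2 fold change was -0.23, and 4 of the 12 were lower and 1 higher at an unadjusted p under 0.05. DESeq2 called 3 lower and 0 higher, and limma-voom 5 lower and 1 higher. Kmt2c, a histone methyltransferase, fell from 399 ± 9.33 to 222 ± 39.5 CPM (log2 fold change -0.85, edgeR adjusted p = 0.0121). Ncoa2, a p160 coactivator, fell from 164 ± 9.82 to 99.5 ± 17 CPM (log2 fold change -0.72, edgeR adjusted p = 0.0209). Tumour 27 was the highest tumour in 0 of the 12, where it was highest in 9.97% of all genes. Both calls were lost without any 1 of the 3 epithelium libraries, and with scaling to epithelial genes (adjusted p = 0.132 and 0.131).

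Genes that oestrogen induces in breast cancer cells were called in both directions, where 8.89% of all genes tested were called higher and 11.4% lower. Of 13 tested among 15, 2 were called higher and 2 lower (median log2 fold change 0.37, and -0.10 with scaling to epithelial genes). More were higher than lower by the other counts, 6 against 3 at an unadjusted p under 0.05, 6 against 2 by DESeq2 and 6 against 3 by limma-voom. Car12, a carbonic anhydrase, rose from 5.62 ± 1.66 to 204 ± 234 CPM (log2 fold change 5.18, edgeR adjusted p = 0.0182), with 8.78 CPM at the lowest tumour and 731 CPM in tumour 27. The lysosomal protease gene Ctsd rose from 195 ± 59.9 to 518 ± 208 CPM (log2 fold change 1.41, edgeR adjusted p = 0.0192), and with scaling to epithelial genes it was not called (0.60, adjusted p = 0.559). The transcription factor gene Myb fell from 47.4 ± 13.1 to 9.10 ± 8.71 CPM (log2 fold change -2.38, edgeR adjusted p = 0.0165), and the chemokine gene Cxcl12, named after its values were seen, fell by 2.18 (adjusted p = 0.0313). In these 4 genes all 9 tumours lay on one side of the epithelium libraries. Each of the 4 calls was lost without at least 1 epithelium library. Tff1 had no counts in any tumour but was too low over the libraries to be tested, so no fall can be read from it.

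Downstream of the prolactin receptor, 3 of 10 genes were called lower and 0 higher, against 11.4% and 8.89% of all genes tested. The median log2 fold change of the 10 was -1.0. At an unadjusted p under 0.05, 4 were lower and 0 higher, DESeq2 called 5 lower and 0 higher, and limma-voom 6 lower and 1 higher. Jak2, the kinase bound to the receptor, fell from 232 ± 26.4 to 111 ± 44.8 CPM (log2 fold change of -1.06 with SE 0.30, edgeR adjusted p = 0.0262). Stat5b, 1 of the STAT5 factors it activates, fell from 114 ± 8.73 to 52.6 ± 19.9 CPM (log2 fold change -1.11, adjusted p = 0.0367). Cish, a STAT5-induced feedback inhibitor, fell from 28.7 ± 2.96 to 11.0 ± 6.53 CPM (log2 fold change -1.38, adjusted p = 0.0430). Tumour 27 lay within the range of the other tumours in all 3, with 107 CPM of Jak2, 61.1 CPM of Stat5b and 7.91 CPM of Cish. The 3 calls were lost without any 1 of the epithelium libraries, Stat5b was also lost without tumour 14, and Cish was also lost without tumour 14, 17, 20, 21, 24 or 27 (adjusted p = 0.0592 without 27). These genes are also active in lymphocytes, whose markers were higher in epithelium, and the part of those cells was not tested.

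Of 12 receptors and partners of the paracrine signals, 3 were called higher and 1 lower, against 8.89% and 11.4% of all genes tested. Their median log2 fold change was 0.97, and 0.25 with scaling to epithelial genes. At an unadjusted p under 0.05, 5 were higher and 1 lower, DESeq2 called 4 higher and 1 lower, and limma-voom 5 higher and 2 lower. Tnfrsf11b encodes osteoprotegerin, the decoy receptor that binds RANK ligand. It rose from 2.99 ± 1.36 to 56.4 ± 75.2 CPM (log2 fold change of 4.24 with SE 1.23, edgeR adjusted p = 0.0294), with 10.5 CPM in tumour 27, where Tnfsf11 was highest, and up to 239 CPM elsewhere. The Wnt receptor genes Lrp6 and Fzd6 rose by 0.93 and 1.01 on the log2 scale (edgeR adjusted p = 0.0297 and 0.0359), and by 0.34 and 0.29 with scaling to epithelial genes, where they were not called. Relb, an NF-kB subunit downstream of RANK that was named after its values were seen, fell by 1.15 (adjusted p = 0.0460), and was not called without tumour 17, 20, 21, 24 or 27. All 4 calls were lost without any 1 of the epithelium libraries, and Fzd6 also without tumour 5 or 14.

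Of 18 other nuclear hormone receptors, 3 were called higher and 2 lower, against 8.89% and 11.4% of all genes tested. Their median log2 fold change was 0.13, and -0.65 with scaling to epithelial genes, where 0 were called higher. At an unadjusted p under 0.05, 4 were higher and 2 lower, as by DESeq2, and limma-voom called 5 higher and 6 lower. Pparg, the adipogenic receptor, fell from 22.7 ± 5.56 to 3.69 ± 1.94 CPM (log2 fold change -2.62, edgeR adjusted p = 0.000992). The 10 adipocyte markers, of which 2 were called lower, were also lower in sum in every tumour than in epithelium, and their part in Pparg was not tested. The vitamin D receptor gene Vdr rose from 21.6 ± 6.27 to 70.2 ± 30.5 CPM (log2 fold change 1.70, edgeR adjusted p = 0.0123). Esrra, an orphan receptor of mitochondrial metabolism, rose from 11.0 ± 0.257 to 26.2 ± 7.21 CPM (log2 fold change 1.25, edgeR adjusted p = 0.0137). Chosen after their values were seen, the glucocorticoid receptor gene Nr3c1 fell by 0.74 (adjusted p = 0.0307) and Esr2, oestrogen receptor beta, rose by 2.93 (adjusted p = 0.0386, not called without tumour 5) to a mean of only 0.632 CPM. Of the 19 calls in these 6 lists, 18 were lost without at least 1 epithelium library, and Pparg kept its call in all 12 fits that left out 1 library.

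The 9 genes were not held together by a single order across the tumours. Over the 9 tumours the 36 pairs of genes had a median Pearson r of 0.36 in log2 CPM, with 29 positive, and over the 8 tumours other than 27 a median of -0.01, with 17 positive. These are descriptions over few points that share library and depth. The highest pair was Pgr with Cited1 (r = 0.89, and 0.70 without tumour 27), and Pgr with Prlr had 0.78 and 0.72. The lowest pair over the 9 tumours was Gata3 with Greb1 (-0.42, and -0.46 without tumour 27). Without tumour 27 the lowest was Esr1 with Pgr, which went from 0.27 to -0.68, followed by Esr1 with Prlr, from -0.02 to -0.59.

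Among 12385 genes outside the lists, those most like the mean of the 9 genes over the 9 tumours were Defb1, Pik3r1, Gja5, Fam90a1a, Itih2 and Tfap2b, with Pearson r from 0.95 to 0.93. Each was highest in tumour 27, which follows in large part from the choice, since tumour 27 dominates the mean they were picked to follow. Candidates also needed a mean of at least 5 CPM over the 9 tumours. Defb1, Fam90a1a and Tfap2b had at most 4.59, 0.848 and 1.02 CPM in the other 8, so they passed this filter only through tumour 27. Without tumour 27, r was 0.95 for Defb1 and 0.92 for Itih2. It was 0.78 for Pik3r1, 0.76 for Gja5, 0.61 for Fam90a1a and 0.62 for Tfap2b. Pik3r1, the regulatory subunit gene of PI3-kinase, had 1545 CPM in tumour 27, 128 to 396 CPM in the other 8 and 313 ± 63.5 CPM in epithelium. Tfap2b, a transcription factor of the AP-2 family, had 59.3 CPM in tumour 27, at most 1.02 CPM in the other 8 and 23.6 ± 6.96 CPM in epithelium. Defb1, an epithelial defensin, had 44.5 CPM in tumour 27, at most 4.59 CPM in the other 8 and 8.56 ± 12 CPM in epithelium, and it was the only one of the 6 also found among the 6 most alike without tumour 27. Its r without tumour 27 rests on low levels, with a median of 0.488 CPM in those 8, and is a description.

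The remaining marker lists place the 2 groups of libraries. By edgeR, 8.89% of all genes tested were called higher and 11.4% lower. General luminal genes were called higher in 3 of 10 (Epcam, Cdh1 and Cldn3) and lower in 0, and 0 were called in either direction with scaling to epithelial genes, which uses Epcam and Cdh1. Luminal progenitor and alveolar genes were called higher in 1 of 11 (Lcn2, an innate defence protein of luminal progenitors) and lower in 0, summing to 5249 CPM in tumour 27, 536 to 10750.4 CPM in the other tumours and 1249 to 1460.5 CPM in epithelium. Basal and myoepithelial genes were called in neither direction over all tumours, with 0 at an unadjusted p under 0.05, and 4 of 10 were called lower without tumour 27, while DESeq2 called 4 and limma-voom 7 lower with all tumours. All 10 T and NK cell genes and all 8 B cell genes were called lower, 5 of 10 endothelial genes were called lower, and macrophage genes were called higher in 3 of 9 and lower in 1. No macrophage gene was called higher with scaling to epithelial genes or without any 1 of the 3 epithelium libraries, while DESeq2 called 3 and limma-voom 4 higher. None of the 10 fibroblast genes was called, with 2 lower at an unadjusted p under 0.05, while DESeq2 called 4 and limma-voom 5 lower. At an unadjusted p under 0.05, 5 general luminal and 3 progenitor genes were higher and 0 lower. DESeq2 called 5 and 4 of them higher and 0 lower, and limma-voom called 4 and 3 higher and 1 progenitor gene lower. The part of these shifts in cell content in the levels of the 9 genes was not tested.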

How the data were processed

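RNA sequencing of 9 tumours and 3 epithelium preparations was analysed from the deposited counts per gene, 1 table per library. Per the submitters' processing notes, the authors used FastQC 0.11.8, TopHat2 2.1.1 and HTSeq 0.11.0 on build GRCm38, and per the labels' protocols total RNA was made into TruSeq stranded libraries. The annotation release, the strand setting and whether reads or pairs were counted were not given in the sources used here. In each table, 5 summary lines (43.2% to 64.0% of all alignments in tumours and 51.3% to 53.5% in epithelium) stayed out of library sizes and tests. Genes were matched to GENCODE M21 for positions and lengths (54106 of 54658).

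Counts were filtered by edgeR 4.0.16 (filterByExpr), scaled by the trimmed mean of M values and tested by its quasi-likelihood test over 21456 genes with Benjamini-Hochberg adjustment at 0.05. SE is the size of the log2 fold change divided by the square root of F. No 2 libraries agreed within counting noise. A floor of 3 counts is 0.0987 to 0.274 CPM in tumours and 0.101 to 0.104 CPM in epithelium, and intervals and floors cover counting error only. Tested on simulated data for this comparison (20943 genes), the test recovered 2% of 50 genes lowered 2-fold, 54% of those lowered 4-fold, 74% of those lowered 8-fold and 86% of those lowered 16-fold, and 5 of its 113 calls were false. Only these lowered genes were changed, and genes with the lowest means were not among them. Each gene had the same dispersion in both groups, so these rates need not hold in the real data.

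The members, the 6 pathway lists, the 9 cell type lists and the comparison of tumour 27 were chosen with earlier results of these data known. Beyond the 9 members, the text names up to 3 called genes per pathway list by smallest adjusted p, otherwise the 2 most abundant, the most abundant genes of cell type lists, and the 6 genes with the highest Pearson r with the members. Alternatives were other scalings, other filters on low counts, DESeq2 1.42.0, limma-voom 3.58.1 with group weights, a prior count of 0.5 and leaving out libraries.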

Additional observations from a re-analysis of the deposited data

Results flagged for a closer look

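Dixon's test at the 95% level was applied to 18 values over the 9 tumours, log2 levels of the 9 genes and of 9 marker list sums, and 2 passed, where chance passes about 1 in 20. The first was Pgr in tumour 27, at 45.0 CPM, whose gap to the next tumour was 0.495 of the whole range, just past the critical value. Tumour 27 was singled out with these values known, so this ratio is a description and supports nothing about it. The second was the summed level of the 10 fibroblast genes in tumour 21, at 34945 CPM, where the ratio was 0.573. In tumour 21 none of the 9 genes was within or above the range of the epithelium libraries, which held also in tumours 1, 4, 14 and 24.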

How the results depend on the processing

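No paired analysis was possible because the labels give tumours and epithelium only 1 replicate number in common. All 9 genes kept a negative log2 fold change under every alternative fitted, and 0 were called higher in any of them. The share of all genes that did so was not computed. The alternatives reuse the same libraries, so a kept sign is a description, as for Tnfsf11 (-2.46 to -0.24). The 2 genes called lower became 1 without a filter on low counts (Esr1), 4 with DESeq2, 8 with limma-voom, 6 without tumours 4 and 27, and 0 to 6 when 1 library was left out. Over all genes, 1908 were called higher and 2438 lower. The number higher was 1076 with library totals alone (2913 lower), 304 with scaling to epithelial genes (2149 lower), 3830 with DESeq2 and 4994 with limma-voom. The number lower was 3623 with DESeq2 and 5622 with limma-voom. Leaving out 1 library gave 506 to 2486 higher and 1496 to 2753 lower, the lowest being without an epithelium library. Tumour 27 was the highest tumour in 7 genes with upper quartile scaling and without tumour 4, 8 with library totals alone and 6 with scaling to epithelial genes. DESeq2 replaced the tumour 27 counts of Foxa1 (1290 by 196), Pgr (1241 by 333) and Tnfsf11 (904 by 77) before its test. Of the 38829 genes it fitted, 10586 had no adjusted p. Pgr, Foxa1 and Cited1 had only a few counts in single tumours, where counting error is large. The fewest were 0 of Pgr in tumour 1, and 2 of Foxa1 and 1 of Cited1 in tumour 24. These were not the shallowest libraries, with effective sizes of 30083064 and 26019369. Tumour 4, the shallowest, had 17, 19 and 150 counts of the 3 genes.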
